A study of Mus musculus with 20 samples.

Results

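The genes of MHC class I antigen presentation were followed as 10 members (*H2-K1*, *H2-D1*, *H2-T23*, *B2m*, *Tap1*, *Tap2*, *Tapbp*, *Psmb8*, *Psmb9* and *Nlrc5*) through bulk RNA-seq of 5 cell populations sorted from mouse dorsal epidermis. They were defined by gene name, and the choice was made with earlier results of these data known. All 10 were found among the 53380 genes of the table, and all 10 belong to the 17204 genes tested, those that reached 10 normalized counts in 3 or more libraries.

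The 20 libraries comprised 5 of dendritic epidermal T cells (DETCs), the γδ T cells that live within the epidermis, 4 of hair follicle stem cells (HFSCs), 4 of Thy1hi keratinocytes, 4 of Thy1- keratinocytes and 3 of Thy1hiYFP+ keratinocytes. DETCs were sorted as integrin-α6-negative, Sca1-low and Thy1+, HFSCs as integrin-α6+, Sca1-negative and CD34+, and the keratinocytes as integrin-α6+ and Sca1+ with or without Thy1, to ask how the Thy1hi cells of the basal layer differ from their neighbours. The published methods name untreated wild-type C57BL/6J mice for DETCs, HFSCs, Thy1hi and Thy1- cells, and for Thy1hiYFP+ cells tamoxifen-induced *Thy1-CreERT2;R26-EYFP* mice, in which the *Thy1* promoter drives the recombinase, on a mixed background. The sample labels differ from this: they give the genotype Thy1.2CreERT2-Rosa26-EYFP and no treatment for every library, ages that rise from 8 to 27 weeks over the series (its design text gives 8 weeks), and Sca1-negative for the YFP+ cells. Mice were pooled, the number per library is not clear, and p-values therefore measure the spread between libraries, which may be technical. The series was prepared in 2 batches and with more than 1 kind of library kit. The labels do not tie a library to either, so the batch and the population cannot be told apart.

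MHC class I molecules carry short peptides from inside the cell to its surface, where CD8+ T cells and natural killer cells inspect them. Each complex is a heavy chain (encoded by *H2-K1*, *H2-D1* or, for the nonclassical Qa-1, *H2-T23*) bound to β2-microglobulin (*B2m*). Peptides are cut by the proteasome, in which *Psmb8* and *Psmb9* are among the genes of the inducible subunits of the immunoproteasome. They are pumped into the endoplasmic reticulum by the transporter of *Tap1* and *Tap2*, and loaded with the help of tapasin (*Tapbp*). *Nlrc5* encodes a transactivator that works at the promoters of these genes together with factors bound at conserved upstream boxes, and interferon-γ is the best known signal that raises the whole pathway. In resting skin, hair follicles have long been described as a site of low class I display.

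Of the 10 members, 8 lie on chromosome 17 between positions 33915899 and 36032855 (mm10), within the region of the major histocompatibility complex, and 4 of them (*Psmb9*, *Tap1*, *Psmb8* and *Tap2*) stand next to each other between 34181988 and 34216321. *B2m* lies on chromosome 2 from 122147686 to 122153083 and *Nlrc5* on chromosome 8 from 94434356 to 94527272. *Psmb9* and *Tap1* are transcribed away from each other and overlap by 212 bases, so reads in that stretch are uncertain, since no strand setting of the counting is given. The heavy chain genes are near-identical over long stretches, and reads of *H2-K1*, *H2-D1* and the *H2-Q* genes may have been split between them.

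The promoters are shown because the members were compared as a group that is known to share upstream elements. RefSeq windows (GRCm38.p6, 250 bases before to 50 after the start) were available for 8 of the 10 members, without *Tap2* and *Nlrc5*. Below, the 250 bases before the start are printed 5′ to 3′ on the strand of the gene for both classical heavy chains, the light chain and *Tap1*. They lie at chr17:34000348-34000597 (minus strand, *H2-K1*), chr17:35262844-35263093 (plus, *H2-D1*), chr2:122147437-122147686 (plus, *B2m*) and chr17:34187306-34187555 (plus, *Tap1*). Capitals mark matches, on either strand, to the letters searched: GAAANNGAAA (interferon response element) and its inner part AANNGAAA (bound by interferon regulatory factors, and always matched within the former), TTCNNNGAA (gamma-activated site), GGGATTCCC (kappa B), TGACG (one arm of the CRE, the cyclic AMP response element) and CCAAT.
H2-K1: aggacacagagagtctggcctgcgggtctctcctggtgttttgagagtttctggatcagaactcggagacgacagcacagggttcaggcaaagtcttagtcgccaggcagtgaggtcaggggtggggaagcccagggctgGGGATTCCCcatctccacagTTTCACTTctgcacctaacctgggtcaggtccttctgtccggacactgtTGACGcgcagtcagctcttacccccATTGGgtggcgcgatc
H2-D1: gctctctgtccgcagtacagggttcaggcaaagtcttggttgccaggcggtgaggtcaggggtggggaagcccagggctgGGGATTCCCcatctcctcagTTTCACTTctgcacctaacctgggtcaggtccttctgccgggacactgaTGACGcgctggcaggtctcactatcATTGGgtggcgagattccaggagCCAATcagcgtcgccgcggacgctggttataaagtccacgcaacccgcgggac
B2m: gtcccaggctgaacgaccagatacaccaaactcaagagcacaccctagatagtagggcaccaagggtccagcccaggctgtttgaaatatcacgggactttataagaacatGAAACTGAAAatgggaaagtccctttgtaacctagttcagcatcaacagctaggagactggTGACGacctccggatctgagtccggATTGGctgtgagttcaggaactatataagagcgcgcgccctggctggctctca
Tap1: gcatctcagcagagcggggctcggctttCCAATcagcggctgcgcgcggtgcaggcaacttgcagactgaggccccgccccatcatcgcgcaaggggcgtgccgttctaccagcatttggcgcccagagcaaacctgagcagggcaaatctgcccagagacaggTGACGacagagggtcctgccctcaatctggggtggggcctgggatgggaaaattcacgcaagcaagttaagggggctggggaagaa

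The windows of *H2-K1* and *H2-D1* hold the same elements in the same order (the kappa B match, the interferon regulatory factor core, the CRE arm and the CCAAT box) and share an unbroken run of 47 bases across the kappa B match. A further CCAAT follows in both windows, in *H2-K1* just past the printed bases. GGGATTCCC was found only in these 2 of the 8 members' windows, against 0.353% of all 32851 promoter windows of this length. The interferon response element occurred in *B2m* and *H2-T23* (3.44% of all windows), the shorter core in these and in *H2-K1* and *H2-D1* (23.9%), and the gamma-activated site in *Psmb8* (8.3%). TGACG was present in 5 members (*H2-K1*, *H2-D1*, *B2m*, *Tap1* and *Psmb9*; 20.8% of all windows) and CCAAT in 7, all but *Psmb8* (37.4%). The windows of *Tap1* and *Psmb9* overlap by 275 bases, so that they show the same TGACG and CCAAT from opposite strands. A match describes the letters and is not evidence of a bound site.

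Libraries held 7781256 to 12982393 reads on genes, of which 13.1% to 41.5% fell on the ribosomal RNA gene *Rn45s*. T cell, HFSC and sort genes separated the libraries as sorted, but DETC libraries also held keratinocyte RNA. T cell genes (6 summed) gave 19033 to 39659 normalized counts per DETC library and at most 424 in any other, and 3 HFSC genes gave 3156 to 4240 per HFSC library and at most 279 in any other. *Thy1*, a gene of the sort, was at 468 to 2260 in DETC, Thy1hi and Thy1hiYFP+ libraries and at 18 to 85 in the others. *Ly6a* (Sca1) was at 95 to 401 in the keratinocyte libraries and at 7 to 78 in DETC and HFSC libraries. Its gap was narrow between Thy1- cells (95 to 148) and HFSCs (35 to 78). HFSC replicate 4 stood apart. It held 30874 normalized counts of 4 basal keratinocyte genes against 72416 to 80273 in the other HFSC libraries, and 73.6 of 5 Langerhans cell and MHC class II genes (all 5 above 0) against 2391 to 4909, with HFSC genes at 3606. DETC a, 1 of 2 DETC libraries whose number matches no label (the other is DETC b), held the most T cell and the least basal keratinocyte RNA (7571, the others 25026 to 36797). The basal keratinocyte sum exceeded the T cell sum in DETC replicates 1, 3 and b, and was below it in replicates 2 and a. Column 4 of the Thy1- cells stood in another row order, which had displaced the values of *H2-K1*, *H2-D1*, *H2-T23* and *Nlrc5*, and these were put back.

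Relative to HFSCs, 7 of the 10 members were higher in Thy1hi cells (*H2-K1*, *H2-D1*, *B2m*, *Tap1*, *Psmb8*, *Psmb9* and *Nlrc5*), by 1.69 to 2.44-fold, and none was lower. Thy1- cells exceeded HFSCs at 5 of these (*H2-K1*, *H2-D1*, *Tap1*, *Psmb8* and *Nlrc5*), of which *Nlrc5* alone was called when these 2 populations were fitted without the others (limma adjusted p 0.00963, the other 4 from 0.0579 to 0.0999). Fitted in that way, Thy1hi cells and HFSCs lost *B2m* (limma adjusted p 0.0627) and *Psmb9* (0.0661). Of all genes, these fits of 2 populations called 3.72% for Thy1- cells and 10.7% for Thy1hi cells. DETCs exceeded HFSCs at 4 members, the heavy chains *H2-K1* and *H2-D1*, *B2m* and *Tapbp*, but lay below Thy1hi cells at *Tap1*, *Psmb8*, *Psmb9* and *Nlrc5*. The heavy chains and *B2m* were not called between DETCs and either wild-type keratinocyte population, whereas *Tap1*, *Psmb9* and *Nlrc5* were lower in DETCs than in both. Differences were tested two-sided with limma on log2(normalized count + 1) over all 17204 genes and called at a Benjamini-Hochberg adjusted p under 0.05. Called genes made up 13.4% of all genes for Thy1hi cells against HFSCs (6.51% higher), 6.08% for Thy1- cells against HFSCs (2.56% higher), 39.7% for DETCs against HFSCs (21.2% higher), 36.6% for DETCs against Thy1hi cells (16.6% lower) and 34.1% for DETCs against Thy1- cells (15.2% lower). The 7 of 10 and 5 of 10 members called in keratinocytes thus stand beside low shares. The 4, 4 and 3 of 10 called in DETC comparisons stand beside shares of about the same size over both directions. In the members' own direction these shares were 21.2%, 16.6% and 15.2%. Comparisons against HFSCs share the same 4 HFSC libraries. Over all 5 populations, the F test of limma called 7 members, against 47.9% of all genes, and did not call *H2-T23* (adjusted p 0.498), *Tap2* (0.877) or *Tapbp* (0.119).

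**Figure D1:**
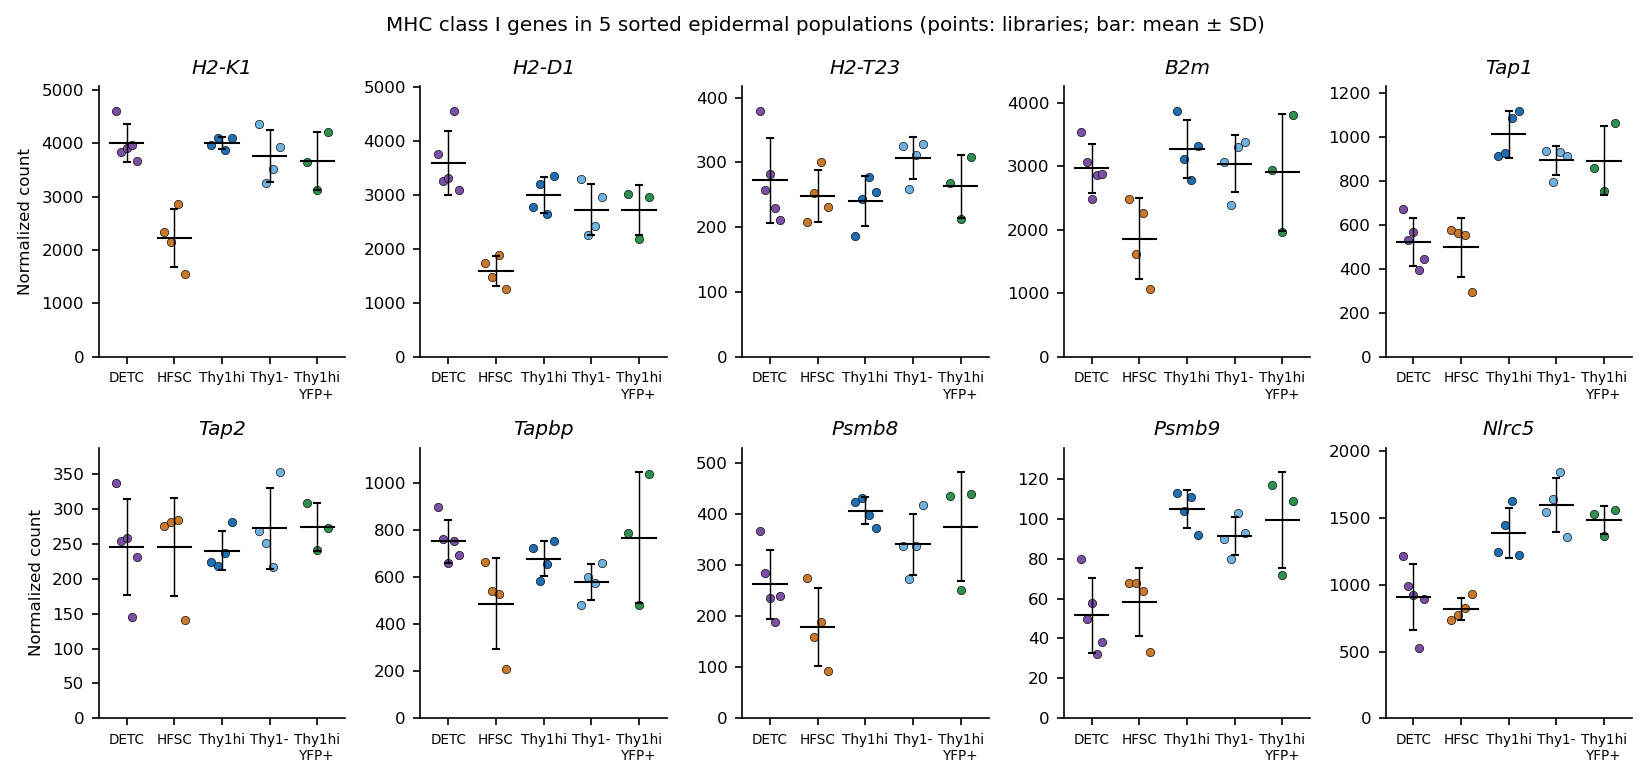
Normalized counts (vertical axes, linear from 0) of the 10 members in the 5 populations, with 1 point per library and a bar with whiskers for the mean ± SD. All 4 HFSC libraries lie below the rest at *H2-K1* and *H2-D1*, DETC and HFSC libraries lie together below the keratinocytes at *Tap1* and *Nlrc5*, and the populations overlap at *H2-T23* and *Tap2*.

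The classical heavy chains form the peptide groove of the complex. *H2-K1* had 4616, 3842, 3920, 3972 and 3673 normalized counts in DETCs (replicates 1, 2, 3, a and b, the order used throughout) and 2337, 2144, 2867 and 1544 in HFSCs. It had 3967, 4094, 3873 and 4096 in Thy1hi cells, 4364, 3255, 3522 and 3931 in Thy1- cells, and 3660, 3134 and 4224 in Thy1hiYFP+ cells. All 4 HFSC libraries lay below every other library, and the remaining populations overlapped. The mean of 4007 ± 108 (SD, n = 4) in Thy1hi cells was 1.85-fold that of HFSCs (2223 ± 546; log2 difference 0.88, standard error 0.18, limma adjusted p 0.00179, exact permutation p 0.0286, the smallest possible for 4 against 4). The log2 difference from HFSCs was 0.79 in Thy1- cells (limma adjusted p 0.00965) and 0.88 in DETCs (adjusted p 0.00027, exact p 0.00794, the smallest possible for 5 against 4).

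*H2-D1*, the second classical heavy chain of this haplotype, had 3743, 3249, 3309, 4554 and 3090 normalized counts in DETCs and 1733, 1468, 1876 and 1263 in HFSCs. It had 2767, 3201, 2650 and 3336 in Thy1hi cells, 3281, 2249, 2414 and 2948 in Thy1- cells, and 3018, 2185 and 2955 in Thy1hiYFP+ cells. HFSCs were again below all other libraries, and DETC a held the highest value of the 20. The log2 difference from HFSCs was 0.92 in Thy1hi cells (limma adjusted p 0.00157), 0.78 in Thy1- cells (adjusted p 0.012) and 1.18 in DETCs (2.27-fold, adjusted p 1.39e-05). DETCs also had the highest mean (3589 ± 591, n = 5), but the difference from Thy1- cells (0.40, limma adjusted p 0.0779) and from Thy1hi cells (0.26, adjusted p 0.272) was not called. Per kb of exon, with all annotated exons of a gene merged, *H2-D1* stood at 1.02 ± 0.16 times *H2-K1* in DETCs and at 0.82 to 0.85 times in the means of the other populations. DETC a was at 1.31 and the other DETC libraries at 0.92 to 0.96, where single HFSC, Thy1hi and Thy1hiYFP+ libraries also lay.

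*B2m*, the light chain shared by all class I molecules, had 3532, 3071, 2477, 2865 and 2880 normalized counts in DETCs and 2484, 1619, 2260 and 1075 in HFSCs. It had 3875, 3119, 2778 and 3314 in Thy1hi cells, 3061, 2396, 3309 and 3387 in Thy1- cells, and 2942, 1968 and 3800 in Thy1hiYFP+ cells. Thy1hi libraries all lay above the HFSC libraries, whereas DETC, Thy1- and YFP+ libraries each reached below the highest of them. *B2m* exceeded HFSCs by a log2 difference of 0.88 in Thy1hi cells (limma adjusted p 0.0169) and 0.74 in DETCs (adjusted p 0.0132). The value for Thy1- cells, 0.77, missed the threshold (adjusted p 0.0586, exact permutation p 0.0571). Per kb of exon *B2m* was the most abundant member, with means of 2162 in HFSCs to 3804 in Thy1hi cells, and the level of *H2-K1* per kb was 0.36 to 0.40 times that of *B2m* in every population. The rank and the size of the ratio depend on the annotated lengths, 860 bases for *B2m* and 2938 for *H2-K1*. The ranges of this ratio overlapped between HFSCs and the other cells.

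*H2-T23* was called in none of the comparisons. Qa-1, its product, presents a narrow set of peptides to receptors of natural killer cells and some T cells. Libraries ranged from 211 to 380 normalized counts in DETCs, 208 to 301 in HFSCs, 187 to 277 in Thy1hi cells, 259 to 329 in Thy1- cells and 212 to 309 in Thy1hiYFP+ cells. All 5 populations overlapped. The largest difference was that of Thy1hi from Thy1- cells (-0.36, 95% interval -0.76 to 0.05, limma adjusted p 0.781). Against HFSCs the interval of Thy1hi cells reached from -0.45 to 0.35, which lies below the estimate for *H2-K1*.

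The transporter is built from 1 chain of each subunit. *Tap1* had 672, 531, 569, 395 and 447 normalized counts in DETCs and 576, 564, 554 and 297 in HFSCs. It had 914, 926, 1089 and 1121 in Thy1hi cells, 935, 798, 932 and 916 in Thy1- cells, and 861, 753 and 1065 in Thy1hiYFP+ cells. Every keratinocyte library lay above every DETC and HFSC library. Thy1hi cells (1013 ± 108, n = 4) had 2.1-fold the level of HFSCs (498 ± 134; log2 difference 1.07, standard error 0.20, limma adjusted p 0.00126) and 1.96-fold that of DETCs (523 ± 108, n = 5; adjusted p 0.000431, exact permutation p 0.00794). Thy1- cells exceeded HFSCs by 0.89 (limma adjusted p 0.011) and DETCs by 1.74-fold (adjusted p 0.00287), and DETCs and HFSCs did not differ detectably (0.10, 95% interval -0.31 to 0.50).

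*Tap2*, which forms the other arm of the same transporter, ranged from 145 to 337 normalized counts in DETCs, 141 to 285 in HFSCs, 219 to 281 in Thy1hi cells, 217 to 353 in Thy1- cells and 241 to 309 in Thy1hiYFP+ cells. Its population means lay between 240 and 274, and no comparison was called. The difference of Thy1hi cells from HFSCs was 0.01 (95% interval -0.50 to 0.53), an interval below the estimate for *Tap1*. The level of *Tap1* over that of *Tap2*, per kb of exon, was accordingly 1.4 ± 0.055 in HFSCs and 1.51 ± 0.22 in DETCs, against 2.92 ± 0.19 in Thy1hi, 2.34 ± 0.49 in Thy1- and 2.26 ± 0.39 in Thy1hiYFP+ cells. All 4 Thy1hi libraries stood above all DETC and HFSC libraries in this ratio, which was chosen after the values were seen and is given without a test.

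Tapasin (*Tapbp*), which holds the empty heavy chain near the transporter, had 896, 762, 658, 751 and 691 normalized counts in DETCs and 665, 539, 529 and 211 in HFSCs. It ranged from 582 to 751 in Thy1hi cells, 480 to 659 in Thy1- cells and 480 to 1035 in Thy1hiYFP+ cells. HFSC replicate 4 lay below all other libraries, which overlapped. The difference of DETCs from HFSCs was called (0.74, limma adjusted p 0.0273), and without HFSC replicate 4 it was 0.38 (adjusted p 0.125). The difference of Thy1hi cells from HFSCs, 0.59, was not called (limma adjusted p 0.161).

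Both immunoproteasome genes among the members were higher in Thy1hi cells than in HFSCs and DETCs. *Psmb10*, a further inducible subunit gene that is not a member, had means of 41.6 normalized counts in DETCs, 29.6 in Thy1hi cells and 20.6 in HFSCs. *Psmb8* encodes the inducible subunit that takes the place of *Psmb5*, and had 367, 285, 236, 188 and 239 normalized counts in DETCs and 276, 159, 189 and 92 in HFSCs. It had 425, 432, 398 and 374 in Thy1hi cells, 337, 273, 337 and 419 in Thy1- cells, and 435, 252 and 440 in Thy1hiYFP+ cells. Thy1hi libraries lay above all DETC and HFSC libraries, and DETCs and HFSCs overlapped. Of the members, *Psmb8* had the largest estimated difference between Thy1hi cells and HFSCs (2.44-fold, log2 difference 1.29, standard error 0.27, limma adjusted p 0.00286, exact permutation p 0.0286). Thy1- cells exceeded HFSCs by 1.02 (limma adjusted p 0.0278), and DETCs lay below Thy1hi cells by 1.58-fold, a difference at the threshold (adjusted p 0.0476) that was lost in 19 of 31 alternative fits.

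*Psmb9* encodes the inducible partner of *Psmb6*. It had the lowest level per kb of exon of the members, a rank that depends on its annotated length of 3660 bases. It had 80, 50, 58, 32 and 38 normalized counts in DETCs and 68, 68, 64 and 33 in HFSCs. It had 113, 104, 111 and 92 in Thy1hi cells, 90, 80, 103 and 93 in Thy1- cells, and 117, 72 and 109 in Thy1hiYFP+ cells. All Thy1hi libraries were above all DETC and HFSC libraries, and all Thy1- libraries were above all HFSC libraries. DETCs (51.6 ± 18.9, n = 5) lay below Thy1hi cells (105 ± 9.38, n = 4) by 2.12-fold (log2 difference -1.08, limma adjusted p 0.00279) and below Thy1- cells by 1.84-fold (adjusted p 0.0133). Thy1hi cells exceeded HFSCs by 0.89 (limma adjusted p 0.0392). The difference of Thy1- cells from HFSCs, 0.69, was not called (adjusted p 0.142). Across the 20 libraries *Psmb9* and *Tap1*, whose starts adjoin, had the highest correlation of any pair of members (r = 0.94, a description over libraries that share depth and population). The genes overlap, and reads in that stretch are uncertain. Over the 15 libraries that are not DETCs this pair (r = 0.94) was not the highest, and *H2-K1* and *H2-D1* reached 0.97.

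Set against the constitutive subunits that they replace, the inducible subunits differed by population. Per kb of exon, *Psmb8* over *Psmb5* was 0.566 ± 0.10 in HFSCs and 0.641 ± 0.14 in Thy1hiYFP+ cells, below every library of DETCs (1.19 ± 0.26), Thy1hi cells (1.29 ± 0.13) and Thy1- cells (1.34 ± 0.25). In the YFP+ cells *Psmb8* itself was at the level of Thy1hi cells, and *Psmb5* stood at 193, 128 and 146 normalized counts against 88, 91, 72 and 86 in Thy1hi cells. *Psmb9* over *Psmb6* was 0.113 ± 0.0031 in HFSCs and 0.111 ± 0.037 in DETCs, and 0.222 ± 0.053 in Thy1hi and 0.215 ± 0.012 in Thy1- cells. Thy1hiYFP+ cells, at 0.144 ± 0.010, lay below every Thy1hi and Thy1- library in this ratio too. *Psmb10* over *Psmb7* ran from 0.159 ± 0.061 in HFSCs to 0.369 ± 0.12 in DETCs, with overlapping libraries. These ratios were chosen after the values were seen and carry no test. Their absolute size depends on annotated exon lengths, such as 3381 bases for *Psmb8* and 899 for *Psmb5*, which are the same in every population.

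**Figure D2:**
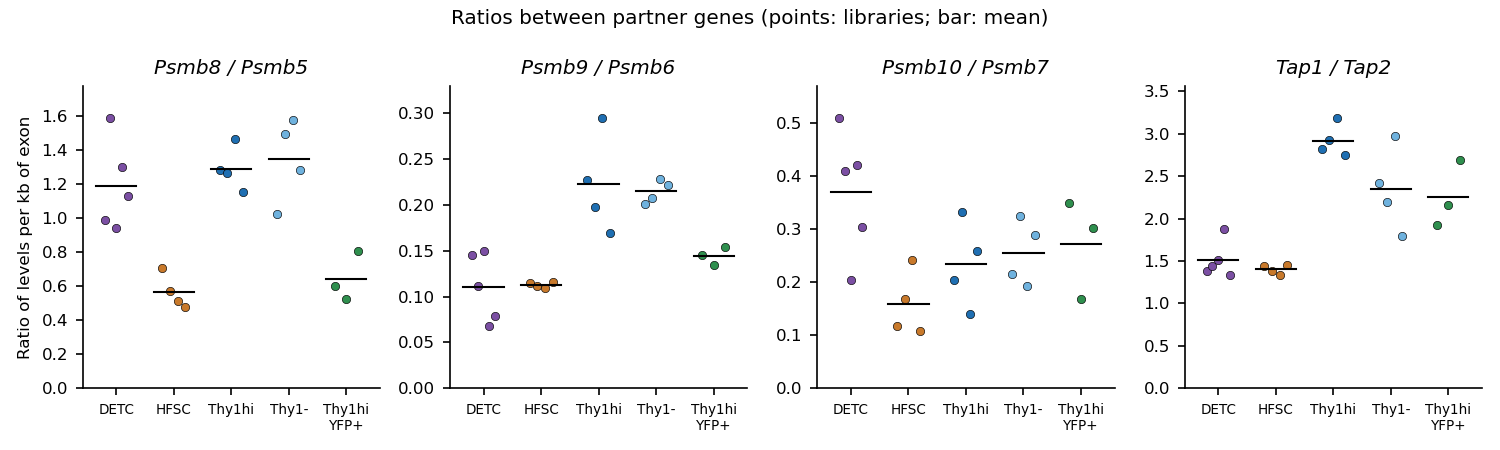
Ratios of levels per kb of exon between partner genes (vertical axes, linear from 0), with 1 point per library and a bar at the mean of each population. *Psmb8* over *Psmb5* is lowest in HFSC and Thy1hiYFP+ libraries, *Psmb9* over *Psmb6* is higher in Thy1hi and Thy1- than in DETC, HFSC and Thy1hiYFP+ libraries, *Tap1* over *Tap2* is highest on average in Thy1hi libraries, and *Psmb10* over *Psmb7* overlaps between populations.

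*Nlrc5*, the transactivator of the pathway, had 1217, 994, 923, 528 and 890 normalized counts in DETCs and 738, 771, 829 and 928 in HFSCs. It had 1248, 1448, 1624 and 1224 in Thy1hi cells, 1542, 1643, 1844 and 1360 in Thy1- cells, and 1533, 1365 and 1559 in Thy1hiYFP+ cells. Every keratinocyte library lay above every DETC and HFSC library. The means were 816 ± 83.2 in HFSCs (n = 4), 910.3 ± 249 in DETCs (n = 5), 1386 ± 188 in Thy1hi cells, 1486 ± 105 in Thy1hiYFP+ and 1597 ± 202 in Thy1- cells. Against HFSCs the log2 difference was 0.76 in Thy1hi (limma adjusted p 0.0119) and 0.96 in Thy1- cells (adjusted p 0.00496), and against Thy1hi and Thy1- cells DETCs lay at -0.65 (adjusted p 0.00851) and -0.85 (adjusted p 0.00117). *Nlrc5* was the called member at which HFSC replicate 4, with 928, was the highest and not the lowest of the HFSC libraries.

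**Figure D3:**
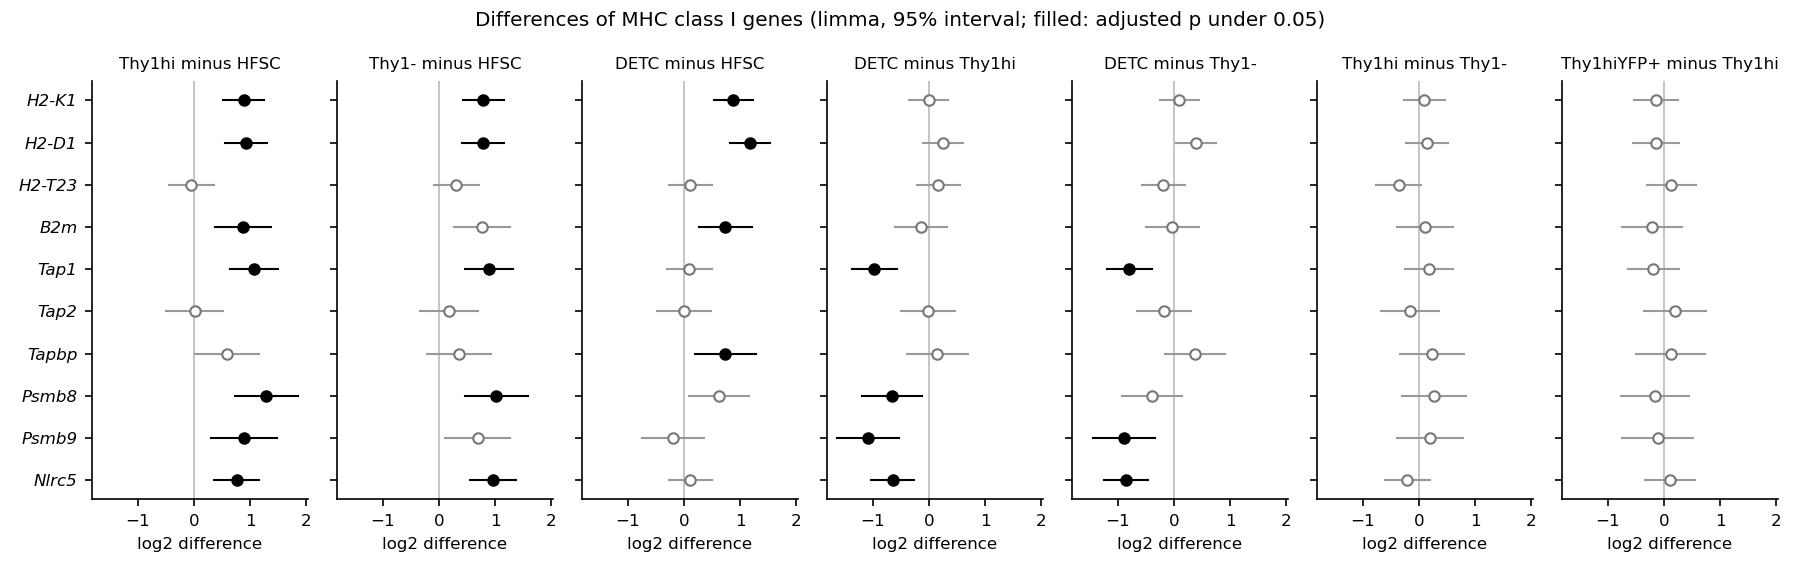
Log2 differences of the 10 members (rows) in the 7 comparisons (panels), with 95% intervals from limma and filled points where the adjusted p was under 0.05. Filled points lie to the right of 0 for 7, 5 and 4 members in the comparisons against HFSCs, to the left for 4 and 3 members where DETCs are set against Thy1hi and Thy1- cells, and none is filled in the last 2 panels.

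The 3 comparisons with HFSCs include replicate 4, the lowest HFSC library at 8 of the 10 members. Without it, Thy1hi cells exceeded HFSCs at 5 members (*H2-K1* 0.72, *H2-D1* 0.82, *Tap1* 0.84, *Psmb8* 1 and *Nlrc5* 0.82 on the log2 scale), and *B2m* (0.64, limma adjusted p 0.0551) and *Psmb9* (0.64, adjusted p 0.128) lost the call. Thy1- cells exceeded HFSCs at 4 members, with *Psmb8* lost (0.74, limma adjusted p 0.0745). DETCs exceeded HFSCs at 2, *H2-K1* (0.72, limma adjusted p 0.000611) and *H2-D1* (1.08, adjusted p 5.07e-05), with *B2m* (0.50, adjusted p 0.0544) and *Tapbp* lost. Of all genes, 5.16% were then called higher in Thy1hi cells, 1.91% in Thy1- cells and 21.2% in DETCs. The 2 of 10 members in DETCs are thus near the share of all genes. The median difference of the 10 members between Thy1hi cells and HFSCs was 0.88 with it and 0.68 without it, beside 0.02 for all genes tested. The libraries of 7 members did not overlap between Thy1hi cells and HFSCs, as for 9.46% of all genes in this direction. For Thy1- cells the medians were 0.77 (members) and 0.04 (all genes), with 5 members not overlapping (6.16% of all genes), and for DETCs 0.37 and 0.02, with 2 not overlapping (18.6%).

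Transcripts of Langerhans cells, which carry both classes of MHC molecules, were present in every population. The 5 Langerhans cell and MHC class II genes were all above 0 in each library, with sums of 73.6 to 4909 normalized counts in HFSCs, 1076 to 3115 in DETCs, 523 to 1275 in Thy1hi, 962 to 1956 in Thy1- and 602 to 1189 in Thy1hiYFP+ cells. HFSC replicates 1 to 3, which had less *H2-K1* and *H2-D1* than any Thy1hi library, held more of these transcripts than any Thy1hi library. Other markers moved with the comparison of HFSCs and Thy1hi cells: the 3 differentiated keratinocyte genes summed to 20848 to 44076 in HFSCs and 7821 to 24099 in Thy1hi cells (23839 to 36409 in Thy1- cells), and the 3 melanocyte genes to 97 to 261 and 24.3 to 77.6, with none of the 6 at 0. Fibroblast genes reached 1438 in Thy1hi replicate 1 and at most 698 in the other Thy1hi libraries. The part of these cells in the result was not tested. Within the HFSCs, replicate 4 was lowest both in this sum and at 8 members, and the part of Langerhans cells in that was not tested. In bulk libraries fewer cells of a type and less RNA per cell cannot be told apart.

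DETCs were lower than Thy1hi cells at 4 members and higher at 0, beside 16.6% of all genes lower and 19.9% higher, and these 4 members did not overlap (14.4% of all genes in this direction). Against Thy1- cells 2 of the 3 lower members, *Tap1* and *Nlrc5*, did not overlap (12.7%). The median difference of the members was -0.08 against Thy1hi cells (all genes -0.004) and -0.18 against Thy1- cells (all genes -0.09). Among DETCs, library a was the lowest at *Tap1*, *Tap2*, *Psmb8*, *Psmb9* and *Nlrc5* and the highest at *H2-D1*. It is also the library with the least basal keratinocyte RNA, whose sum was 7571 to 36797 in DETCs against 130765 to 187771 in Thy1hi cells, and the part of keratinocyte RNA in the DETC values was not tested. Without it, DETCs still lay below Thy1hi cells at *Tap1* (-0.88, limma adjusted p 0.00119), *Psmb9* (-0.93, adjusted p 0.00809) and *Nlrc5* (-0.46, adjusted p 0.0146), while *Psmb8* was lost (-0.55, adjusted p 0.116). The deviations of same-numbered DETC and HFSC libraries correlated at r 0.170 to 0.333, within the range of other pairs (-0.318 to 0.371), so their pairing is uncertain. In the paired fit of replicates 1 to 3, which leaves out DETC a, DETC b and HFSC replicate 4 and blocks on the number, *Psmb8* (0.52, limma adjusted p 0.0236) and *Nlrc5* (0.41, adjusted p 0.0305) were called above HFSCs as well, 6 members in all, beside 42.2% of all genes called in that fit (22.6% higher).

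Thy1hi and Thy1- cells, the comparison at the centre of the study, did not differ detectably at the 10 members. None of the 10 members was called by limma, edgeR or DESeq2, 0 had an unadjusted p under 0.05, and the paired fit called 0 as well. Of all genes, limma called 0.337%, edgeR 0.256%, DESeq2 1.55% and the paired fit 6.61%. No member separated the libraries of the 2 populations (6.77% of all genes did). Estimates ran from -0.36 (*H2-T23*) to 0.27 (*Psmb8*, 95% interval -0.29 to 0.83). The upper limit for *Psmb8* lies above the size of its difference between DETCs and Thy1hi cells (-0.66). The interval of *H2-K1* (-0.27 to 0.46) ends below its difference from HFSCs. Thy1hiYFP+ cells against Thy1hi cells likewise gave 0 called members by the 3 tools and 0 with an unadjusted p under 0.05 (limma and edgeR called 0.0116% of all genes and DESeq2 0.926%, and 10.5% did not overlap against 0 members), with estimates from -0.21 (*B2m*) to 0.19 (*Tap2*). YFP+ replicate 2 was the lowest of its 3 libraries at all 10 members.

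**Figure D4:**
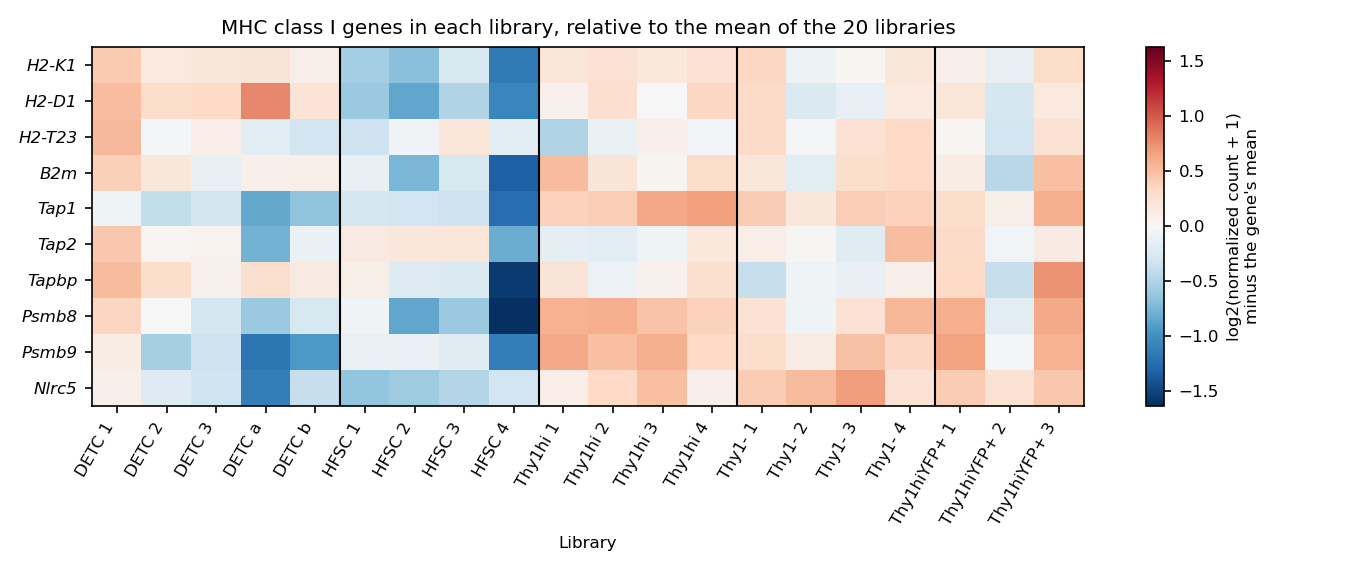
Heatmap of the 10 members (rows) in the 20 libraries (columns, grouped by population), coloured by log2(normalized count + 1) minus the mean of the gene over all libraries. HFSC replicate 4 is among the 2 lowest columns at every member but *H2-T23* and *Nlrc5*, DETC a is above the mean at *H2-D1* and below it at *Tap1*, *Tap2*, *Psmb8*, *Psmb9* and *Nlrc5*, and every keratinocyte column is above the mean at *Tap1* and *Nlrc5*.

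The members varied together to different degrees. The correlation of a member with the mean of the other 9 over the 20 libraries ran from r = 0.41 for *H2-T23* to 0.93 for *Psmb8*. Over the 15 libraries that are not DETCs it was 0.95 for *H2-K1* and *Tap1*, 0.94 for *Psmb8*, 0.93 for *Psmb9* and 0.91 for *H2-D1* and *B2m*, and 0.34 for *H2-T23*, 0.53 for *Tap2* and 0.63 for *Nlrc5*. *H2-K1* and *H2-D1*, whose promoters are printed above, reached r = 0.97 over these 15 libraries, and their reads may be shared. The 8 genes most like the mean of the members over all 20 libraries were *Ifi203* (r = 0.89), *Cnn2*, *Rab1a*, *Myd88*, *Odc1*, *Arf6*, *Sat1* and *Bhlhe40* (0.83). Outside DETCs they were *Reep3* (r = 0.95), *Slc29a2*, *Bcl2l13*, *Gpd2*, *Ptgfrn*, *Chit1*, *Tgfa* and *Nup188* (0.92). *Ifi203*, a member of the interferon-inducible p200 family, had 39.7 normalized counts in HFSCs and 133 to 170.1 in the means of the other populations. These correlations describe libraries that share populations and are not tests.

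Other heavy chains were read as a list of 16, of which 15 could be tested. Against HFSCs, 5 were higher in Thy1hi cells, the nonclassical *H2-Q4* (1.15, limma adjusted p 0.000271), *H2-Q6* (0.65), *H2-Q7* (0.89) and *H2-Q10* (0.96) and *H2-M3* (1.16, adjusted p 0.00381), which presents formylated peptides. One, *Mr1*, which presents vitamin metabolites to innate-like T cells, was lower (-0.99, limma adjusted p 0.0177). The same 5 were higher in Thy1- cells, and 8 were higher in DETCs, with *H2-Q2*, *Cd1d1* and *Mr1* besides. Without HFSC replicate 4, *H2-Q10* was not called in Thy1hi cells (0.70, limma adjusted p 0.0586) nor *H2-Q2* in DETCs (0.62, adjusted p 0.205). The list's median was 0.65 in Thy1hi cells, 0.76 in Thy1- cells and 0.99 in DETCs. Between Thy1hi and Thy1- cells, limma, edgeR and DESeq2 called 0 genes of this list, and 2 had an unadjusted limma p under 0.05. The libraries of 2 genes, both lower in Thy1hi cells, did not overlap there (6.77% of all genes in either direction). Against Thy1hi cells, DETCs were higher at *H2-Q6*, *Mr1* (2.1, limma adjusted p 1.54e-06) and the lipid-presenting *Cd1d1* (14.9 against 1.6 normalized counts). They were lower at *H2-T10* (-1.52, limma adjusted p 0.00979) and *H2-T22* (-0.98, adjusted p 0.00214). *H2-T22* encodes a ligand of some γδ T cell receptors, and *H2-T10* is annotated as a polymorphic pseudogene. The *H2-Q* and *H2-T* genes are themselves families of near-identical copies, so their values are uncertain in the same way.

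The loading step also depends on chaperones of the endoplasmic reticulum. Of 6 genes, 4 were higher in DETCs than in Thy1hi cells and the same number than in Thy1- cells, 5 were higher than in HFSCs, and 0 were called between either wild-type keratinocyte population and HFSCs by limma, edgeR or DESeq2 (4 in Thy1hi and 0 in Thy1- cells had an unadjusted p under 0.05). Calreticulin (*Calr*) had 7801 normalized counts in DETCs, 3456 in Thy1hi cells and 2578 in HFSCs (log2 difference from Thy1hi cells 1.08, limma adjusted p 0.00592). *Tapbpl*, the relative of tapasin that edits peptides, had 409 in DETCs against 106 and 72.2 (1.95, adjusted p 2.85e-06). The disulphide isomerase *Pdia3* (0.68, limma adjusted p 0.0341) and the general chaperone *Hspa5* (1.78, adjusted p 0.00114) complete the 4, and both also serve proteins outside this pathway. Of 7 further proteasome genes, *Psmb10* was the only one called by limma in any of the 7 comparisons, in DETCs against HFSCs (41.6 against 20.6 normalized counts, 1.03, adjusted p 0.0271), and it was not called in the paired fit (adjusted p 0.255) or without HFSC replicate 4 (0.71, limma adjusted p 0.11). DESeq2 also called *Psme2*, a subunit of the proteasome activator, in Thy1hi cells against HFSCs (0.69, adjusted p 0.0299; limma 0.68, adjusted p 0.051).

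Of 15 regulators of class I genes, 4 were higher in Thy1hi cells than in HFSCs: *Irf1* (1.95, limma adjusted p 0.0284), an interferon-induced activator, *Rela* (1.75, adjusted p 0.00266) and *Nfkb1* (1.13, adjusted p 0.0236), the NF-κB subunits that bind kappa B sites, and *Nfyb* (0.74, adjusted p 0.0368), a subunit of the CCAAT-binding factor. *Irf1* had 1493, 1376, 1176 and 924 normalized counts in Thy1hi cells and 399, 881, 686 and 40 in HFSCs, so that the lowest Thy1hi and the highest HFSC library lay close together and replicate 4 far below. *Rela* was called in Thy1- cells too (1.5, limma adjusted p 0.016). Without HFSC replicate 4 the difference of *Irf1* between Thy1hi cells and HFSCs was 0.97 (limma adjusted p 0.011) in place of 1.95, and *Nfkb1* lost its call (0.97, adjusted p 0.0709). In Thy1- cells, *Irf1* (0.86, limma adjusted p 0.0391) was then called beside *Rela*. *Rela* was not called in DETCs without that library (0.58, adjusted p 0.109). DETCs had less *Rfx5* (-0.75, adjusted p 0.031) and *Nfyb* (-1.22, adjusted p 0.000153) than Thy1hi cells, both parts of the complex through which *Nlrc5* acts, and more *Atf1* (0.61, adjusted p 0.00531). Against HFSCs, DETCs were higher at regulators that included *Stat2* (1.17, limma adjusted p 0.00275), *Nfkb1*, *Rela* and *Atf1*. In the paired fit of Thy1hi and Thy1- cells, which called 6.61% of all genes, 2 regulators were called, among them *Nfyb* (0.59, limma adjusted p 0.0165), higher in Thy1hi cells. Without the block limma, edgeR and DESeq2 called 0 regulators, and 1 had an unadjusted p under 0.05.

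Interferons act on these genes through their receptors and the JAK kinases. Of 8 genes, 5 in DETCs exceeded Thy1hi cells (*Ifngr1* 1.16, *Ifngr2* 2.1, *Ifnar1* 2.02, *Jak1* 1.05 and *Socs1* 2.29), the same 5 exceeded Thy1- cells, and 6 exceeded HFSCs, with *Ifnar2* besides. Thy1hi cells exceeded HFSCs at 4 (*Ifngr1* 1.31, limma adjusted p 0.00105, *Ifnar2*, *Jak1* and *Jak2*) and Thy1- cells at 2 (*Ifngr1* and *Jak2*). Without HFSC replicate 4 these numbers were 2 and 0. The interferon-γ receptor chain *Ifngr1* had means of 2170 normalized counts in DETCs, 958 in Thy1hi, 754 in Thy1-, 595 in Thy1hiYFP+ cells and 392 in HFSCs. DETCs were among the lowest populations at *Tap1*, *Psmb9* and *Nlrc5* and had the highest mean at *H2-D1*. A link of *Ifngr1* to the members was not tested.

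Among 12 interferon-stimulated genes outside the pathway, 11 could be tested, and calls went in both directions. Against Thy1hi cells, DETCs were higher at 4 (*Irf7* 1.38, *Isg15* 2.32, *Igtp* 1.36 and *Irgm1* 1.69) and lower at 2, the GTPases *Gbp2* (55.5 against 155 normalized counts, -1.64, limma adjusted p 0.00111) and *Iigp1* (-2.09, adjusted p 0.00419). Against Thy1- cells DETCs were also lower at the chemokines *Cxcl9* (-2.48, limma adjusted p 0.0111) and *Cxcl10* (-1.74, adjusted p 0.000659). Thy1hi cells exceeded HFSCs at *Gbp2* (1.28, limma adjusted p 0.0289) and *Irgm1* (0.98, adjusted p 0.0343), neither of which was called without HFSC replicate 4, and Thy1- cells exceeded HFSCs at *Cxcl10* (1.83, adjusted p 0.00516). In the paired fit *Cxcl9* (-2.24, limma adjusted p 0.0242) and *Cxcl10* (-0.92, adjusted p 0.0471) were lower in Thy1hi than in Thy1- cells, while unpaired limma, edgeR and DESeq2 called 0 genes of this list there (2 had an unadjusted p under 0.05). Also lower in that paired fit was the class II invariant chain *Cd74*, carried by Langerhans cells (-0.81, adjusted p 0.00568). The median of the list was 0.91 for Thy1hi cells against HFSCs and -0.24 for DETCs against Thy1hi cells.

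**Figure D5:**
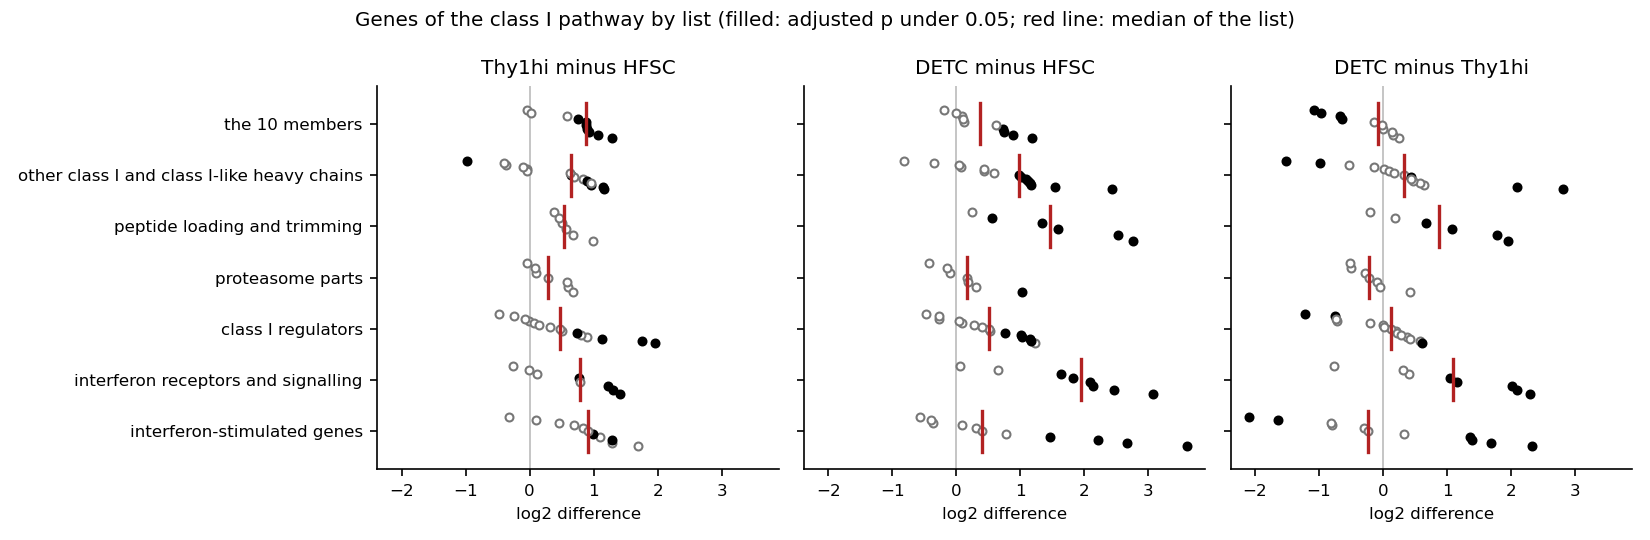
Log2 differences of single genes (points) in the members and the 6 other lists (rows) for 3 comparisons (panels), filled where the limma adjusted p was under 0.05, with a red line at the median of each list. In Thy1hi cells against HFSCs the members have a median of 0.88, and in DETCs against Thy1hi cells the members' median of -0.08 stands beside 0.88 for peptide loading and 1.10 for interferon receptors and signalling.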

How the data were processed

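Sorted cells were pooled, sequenced as single reads, aligned to mm10 with STAR and counted per gene with featureCounts, and the authors deposited 1 signal table of DESeq2-normalized counts. Every value came out as a whole number of reads once divided by the step of its library. Column 4 of Thy1- cells was put back into gene order (3212 genes moved). Differences in log2(normalized count + 1) were tested with limma 3.58.1 (R 4.3.3, trend) in 1 fit of all 20 libraries, over 17204 genes, with Benjamini-Hochberg adjustment, beside an exact two-sided permutation test per member. Alternatives were edgeR 4.0.16 and DESeq2 1.42.0 on the recovered reads, other pseudocounts, filters and scalings, a replicate block, and each library left out. In a simulation of the contrast of DETCs and Thy1hi cells with known changes, calls were made for 46 of 67 genes set 2-fold apart, for 62 of 67 set 4-fold apart and for 8 of the 17004 left equal. It gave all genes the same dispersion and changed few of them, whereas 36.6% of all genes were called in the real contrast. Its rates may therefore differ from those of the real test.

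Members, gene lists (64 genes in 6 lists) and markers were chosen with earlier results of these data known, and genes were named where they were members, were called within a list or served as contrast to a member, or ranked among the 8 most like the members' mean. *Cd74* and the ratios were picked after their values were seen. The deviations of same-numbered Thy1hi and Thy1- libraries correlated at r 0.293 to 0.716 over 4 pairs (other pairs -0.651 to 0.514). Those of DETC and HFSC libraries correlated at 0.170 to 0.333 over 3 pairs (others -0.318 to 0.371). Both were also fitted as pairs, although the ranges overlap with those of other pairs. The number is the only source of the pairing. One list gene is not reported by name here.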

Additional observations from a re-analysis of the deposited data

Results flagged for a closer look

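Within the 40 groups of 4 or 5 libraries examined (10 members in 4 populations), 4 held a library whose gap to the nearest other exceeded Dixon's 95% limit, where chance gives about 1 in 20. Of these, 3 were HFSC replicate 4. *Tap1* had 297.08 normalized counts there against 553.77 to 576 in the other HFSC libraries, *Tap2* had 140.83 against 275.88 to 285.44, and *Psmb9* had 32.93 against 64.14 to 68.42. The other was *Tap1* in Thy1- replicate 2, with 798.35 against 916.45 to 935.21.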

How the results depend on the processing

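Counts of called members changed with these settings. In the row order as deposited, which misplaces *H2-K1*, *H2-D1*, *H2-T23* and *Nlrc5* in Thy1- replicate 4, 2 members were called for DETCs against Thy1hi cells, 2 for DETCs against HFSCs, 4 for Thy1hi cells against HFSCs, 2 for Thy1- cells against HFSCs and 4 over all populations, against 4, 4, 7, 5 and 7. The shares of all genes called in the first 4 were 34.5%, 37.5%, 12.0% and 5.58%. The misplaced values turned the direction for Thy1- cells against HFSCs at *H2-K1* (-1.14), *H2-D1* (-2.10) and *H2-T23* (-1.78), for Thy1hi against Thy1- cells at *H2-T23* (1.74) and *Nlrc5* (0.33), and for DETCs against Thy1- cells at *H2-T23* (1.90). Quantile normalization called 2 members for DETCs against HFSCs (40.7% of all genes) and turned *H2-D1* in DETCs against Thy1hi cells to -0.021. It moved the median of all genes for DETCs from -0.004 to -0.20 against Thy1hi cells, -0.091 to -0.25 against Thy1- cells and 0.023 to -0.15 against HFSCs, and the split of called genes from 3425 higher and 2864 lower to 2921 and 3936, from 3250 and 2621 to 2813 and 3812, and from 3644 and 3189 to 3024 and 3973. Scaling to an equal total without *Rn45s* gave 2797 higher and 3353 lower for DETCs against Thy1- cells, and 837 and 482 for Thy1- cells against HFSCs, against 440 and 606. Fitting 2 populations alone called 1 member for Thy1- cells against HFSCs (3.72% of all genes). A replicate block called 4 members for Thy1hi and 0 for Thy1- cells against HFSCs (7.96% and 1.91% of all genes), and gave 0.025 for *H2-T23* in DETCs against Thy1- cells. Libraries of every block share only a number. Leaving out 1 library gave 2 (without HFSC replicate 4) to 5 (without DETC a) members for DETCs against HFSCs and 3 (without Thy1- replicate 1) to 6 (without DETC a) for Thy1- cells against HFSCs. Beside these 4 counts stood 40.3%, 33.8%, 2.97% and 9.62% of all genes called. In 31 alternatives *Tap1* and *Psmb8* in Thy1hi cells against HFSCs, and *Tap1* and *Psmb9* in DETCs against Thy1hi cells, were called every time. Of 1319 values for single members under alternatives, 1226 kept direction and side of the threshold, 72 lost a call, 13 gained one and 8 changed direction. These values leave out uncalled members whose main estimate lay within 1 standard error of 0, and members the F test did not call. Values left out could also change direction or gain a call. *Tap2* in DETCs against Thy1hi cells went from -0.013 to 0.31 with the replicate block. The cause of these changes was not tested beyond the row order.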
